A study of Mus musculus with 8 samples.

Results

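Translation initiation factors are the proteins that load messenger RNA and the initiator tRNA onto the small ribosomal subunit and select the start codon. The genes examined here are all those whose symbol starts with Eif, which encode the subunits eIF1 to eIF6, the eIF2 kinases and the 4E binding proteins. They were chosen by symbol alone: a probe set counted if it was annotated with exactly 1 gene symbol that starts with Eif, and the brightest probe set of a gene, by mean log2 signal over the arrays, stands for it. This gave 42 of the 12393 genes on the array, read from 103 of the 20380 probe sets with 1 symbol. A further 5 probe sets with an Eif symbol beside another symbol (those of Eif4a3, of Eif3j1 with Eif3j2, and 1 of Eif1a) were not used here. The 42 genes are not the whole family: Eif1, Eif2b3, Eif2s1, Eif3g and Eif4g1, for example, are not among them.

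Cap-dependent initiation starts when eIF4E binds the 5' cap of a messenger RNA and the helicase eIF4A, held by the scaffold eIF4G, opens its leader, while 4E binding proteins keep eIF4E from the scaffold. The initiator tRNA arrives with eIF2 and GTP as the ternary complex, and eIF2B exchanges GDP for GTP on eIF2 after each round. Under stress, 4 kinases that sense heme or oxidants, double-stranded RNA, unfolded protein in the endoplasmic reticulum or uncharged tRNA phosphorylate eIF2, which blocks eIF2B and lowers general translation.

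The cells were TTE3, a Sertoli cell line made from mice with a simian virus 40 transgene, the large T antigen in a temperature-sensitive form, which every group therefore shares. They were given 0.2 mM bisphenol A (BPA), a plastic monomer with weak estrogenic activity, for 0, 3, 6 or 12 h, and total RNA was read on 2 one-colour Affymetrix 430A arrays per time. TTE3 is 1 line, the labels give no separate cultures for the arrays of a time, and the p-values therefore measure a spread between arrays that may be technical. Arrays without BPA at the later times were not analysed here, so the effect of BPA and that of time in culture cannot be told apart.

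Signals are the authors' linear values, with a median per array between 150.85 and 170.05, and the arrays of a time correlated at 0.974 to 0.984 across genes (log2). Of 19 Sertoli cell markers on the array 12 passed the filter on low signals, among them Gata4, Kitl, Clu, Krt18 and Nr5a1, while Amh, Fshr, Cldn11, Dhh, Cst9, Cst12 and Gjb2 lay below it. The summed signal of the Sertoli markers was 10979 to 11700.8 on the 12 h arrays and 14136.4 to 14525.1 on the 0 h arrays. Clu alone differed by more than this sum, with means of 3409.2 at 12 h and 7650.5 at 0 h, while Sox9 (1.55), Gata4 (0.50), Tjp1 (0.41) and Krt18 (0.38) were called higher and Inhbb (-0.99) lower at 12 h (log2 changes). The sum of 7 peritubular and fibroblast markers was 4473.7 to 5307.4 at 12 h and 9664.4 to 9750.7 at 0 h, and that of 9 germ cell markers 469.7 to 517.1 at 12 h and 794.2 to 811.5 at 0 h. Dcn made up most of the fibroblast difference, with means of 4289.55 at 12 h and 8431.75 at 0 h. Col1a1 was also called lower (-1.54), while Acta2 (0.18), Des (-0.01) and Col1a2 (-0.37) were not called. Kit alone differed by about as much as the germ cell sum, with means of 229.55 at 12 h and 545.45 at 0 h. Sums of macrophage markers were 622 to 665.5 at 12 h and 582.2 to 650.4 at 0 h, of Leydig cell markers 486.5 to 615.7 at 12 h and 509 to 511.5 at 0 h, and of endothelial markers 184.5 to 218.9 at 12 h and 129.6 to 151.5 at 0 h. Only 3 of 5 macrophage, 1 of 5 Leydig cell and 1 of 4 endothelial markers passed the filter on low signals. The endothelial marker that passed, Kdr, was not called at 12 h (0.26). The part of these shifts in the changes below was not tested. In bulk RNA, fewer cells of a type and less RNA per cell cannot be told apart.

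Of the 41 Eif genes tested 18 were called at 12 h (43.9%, against 38.4% of all genes), and 23 did not pass. Of the 18 called genes 15 were higher and 3 lower, which is 36.6% and 7.32% of the 41, against 20.9% and 17.5% of all genes. At 3 h 1 was called (2.44%, against 12.1% of all genes). The share of all genes that was called also grew over the times. Changes are differences of log2(signal + 7.9) with the standard error of a limma fit over all 8 arrays, and a gene is called where its Benjamini-Hochberg adjusted p over all 8675 genes tested is under 0.05. Of the 42 genes 41 passed the filter on low signals. The gene that did not, Eif4e3, had signals of 32.9 and 48.9 at 0 h, 58.8 and 47.9 at 3 h, 58.6 and 24.0 at 6 h, and 70.8 and 10.5 at 12 h.

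At 3 h against 0 h limma called 1 of the 41 genes, Eif4a2, which is 2.44%, against 12.1% of all genes tested. It was called higher, as were 8.55% of all genes, and none was called lower, against 3.53% of all genes. At an unadjusted p under 0.05 there were 2 Eif genes higher and 2 lower, beside 1473 higher and 769 lower of all 8675 genes. At 6 h 8 genes were called (19.5%, against 26.5% of all genes). Of these 6 were higher and 2 lower, which is 14.6% and 4.88%, against 16.8% and 9.73% of all genes. At 12 h 18 genes were called (43.9%, against 38.4%): 15 were higher, or 36.6% against 20.9% of all genes, and 3 were lower, or 7.32% against 17.5%. The Eif genes were bright, with a median percentile of 93.9 by mean log2 signal among all genes on the array. Of the 42 genes 24 lay above the 90th percentile. The fit moderates variances along an intensity trend, and the shares called among genes of like brightness were not computed. Over the 4 times together the moderated F test called 14 genes (34.1%, against 35.8%). The counts rest in part on the 0 h arrays: without array 1 or array 2 of 0 h there were 3 and 2 called genes at 6 h, and 10 and 11 at 12 h. The calls of Eif4a2, Eif2s2, Eif2b1, Eif2b4, Eif3a, Eif3c, Eif3d, Eif4ebp1 and Eif5b at 12 h, of Eif4a2 and Eif2s2 at 6 h and of Eif4a2 at 3 h were kept whichever array was left out. The other calls against 0 h named below were lost without at least 1 array.

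The median change of the 41 genes was 0.04 at 3 h, 0.07 at 6 h and 0.17 at 12 h, and that of all genes tested was 0.06, 0.07 and 0.06. Both 12 h arrays were above both 0 h arrays for 24 of the 41 genes (58.5%, against 38.6% of all genes) and below them for 9 (22.0%, against 30.9%). A called change of at least 0.5 was found in 8 genes (19.5%, against 30.8% of all genes). Because the authors scaled every array to the same mean signal, a shift of all RNA in 1 direction would be invisible here. Scaling the arrays to the same median instead moved the median change of all genes to -0.07 at 3 h, -0.04 at 6 h and 0.05 at 12 h, and at 6 h it turned the split of the Eif genes into 3 higher and 5 lower.

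**Figure D1:**
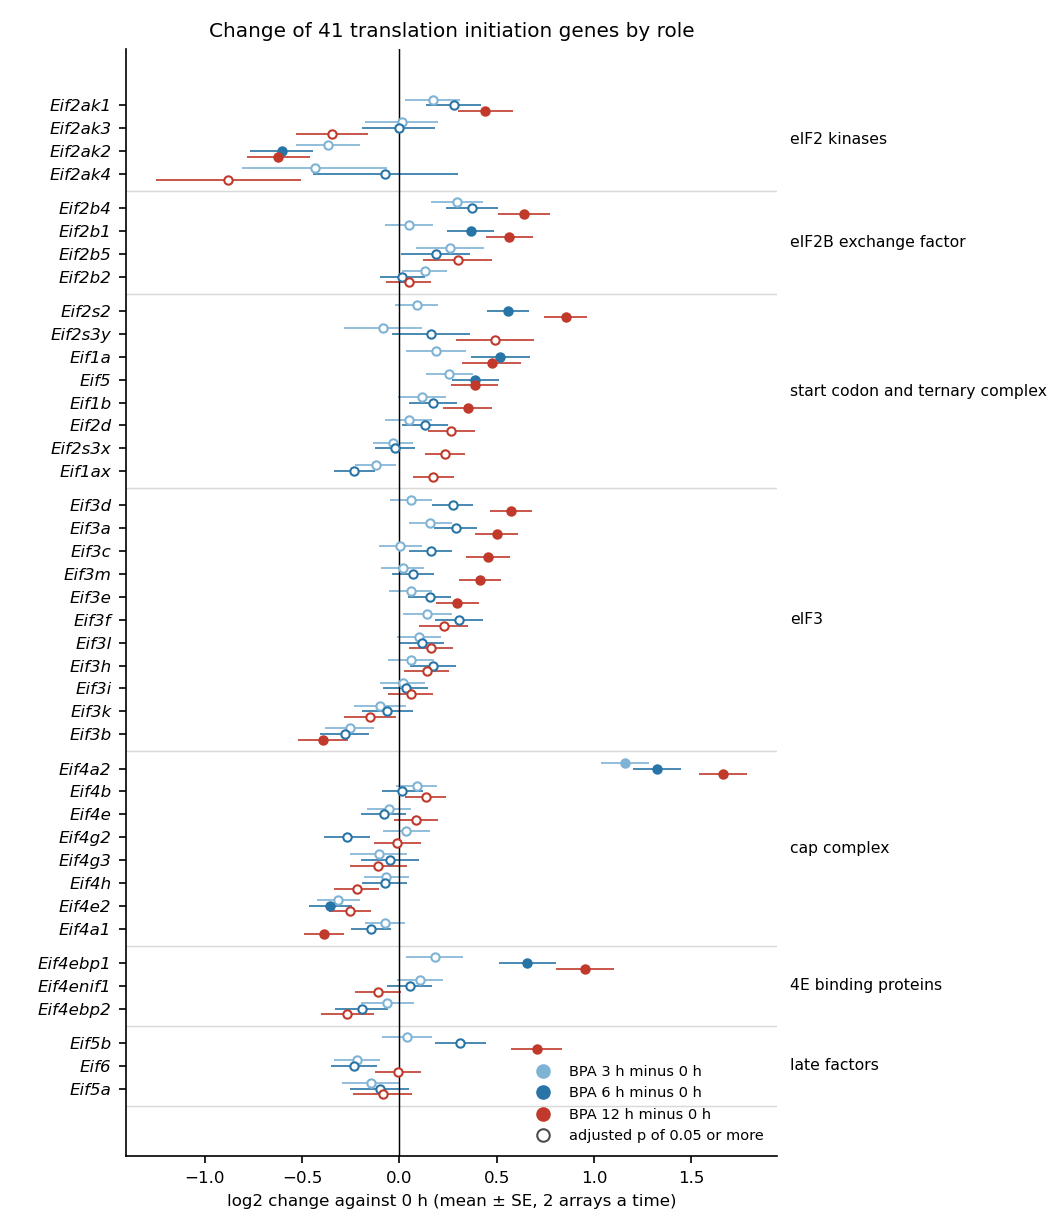
Log2 change of the 41 tested Eif genes against 0 h (horizontal axis, mean with standard error, 2 arrays per time) at 3 h, 6 h and 12 h of BPA, grouped by role; filled points have an adjusted p under 0.05. Eif4a2 stands apart at all 3 times with 1.16, 1.32 and 1.66, and most filled points of the other genes are those of 12 h, 15 of them to the right of 0 and 3 to the left when Eif4a2 is included.

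The paralogs of the eIF4A helicase moved in opposite directions. Eif4a2, the gene of the second cytoplasmic eIF4A helicase, had signals of 1429.1 and 1475.7 at 0 h, 3230.8 and 3279.1 at 3 h, 3194.2 and 4167.6 at 6 h, and 4578.0 and 4655.7 at 12 h. All arrays with BPA lay far above both 0 h arrays, and the 12 h arrays were the highest. Only 1 probe set reads this gene. The change was 1.16 ± 0.12 at 3 h (adjusted p = 3.85e-05), 1.32 ± 0.12 at 6 h (adjusted p = 6.61e-06) and 1.66 ± 0.12 at 12 h (adjusted p = 5.81e-07).

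Eif4a1, the gene of the main eIF4A helicase, had signals of 12201.4 and 12248.1 at 0 h, 12066.3 and 11133.0 at 3 h, 11418.0 and 10691.5 at 6 h, and 9448.3 and 9257.6 at 12 h. Every array with BPA was below both 0 h arrays, those of 12 h the lowest. Its change was -0.08 ± 0.10 at 3 h, -0.15 ± 0.10 at 6 h and -0.39 ± 0.10 at 12 h, of which the last was called (adjusted p = 0.00926). The 3 tested probe sets of Eif4a1 were all called lower at 12 h when probe sets were tested singly, with changes between -0.86 and -0.39. Without array 1 or array 2 of 0 h the call of the gene was lost, with an adjusted p of up to 0.0602.

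The 250 bases before the RefSeq start of each paralog (mouse build GRCm38.p6) are shown because these genes went opposite ways. Capitals mark the GC box GGGCGG on either strand (CCGCCC is its other strand) and the E-box CACGTG. The Eif4a2 stretch is chr16:23107218-23107467 on the plus strand and the Eif4a1 stretch chr11:69672424-69672673 on the minus strand, both written 5' to 3' in the direction of the gene.
Eif4a2: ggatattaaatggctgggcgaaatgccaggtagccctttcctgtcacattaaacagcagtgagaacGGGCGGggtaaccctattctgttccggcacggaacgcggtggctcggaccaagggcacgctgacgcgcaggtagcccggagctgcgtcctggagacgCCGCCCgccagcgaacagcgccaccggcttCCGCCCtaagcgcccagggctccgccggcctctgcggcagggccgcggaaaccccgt
Eif4a1: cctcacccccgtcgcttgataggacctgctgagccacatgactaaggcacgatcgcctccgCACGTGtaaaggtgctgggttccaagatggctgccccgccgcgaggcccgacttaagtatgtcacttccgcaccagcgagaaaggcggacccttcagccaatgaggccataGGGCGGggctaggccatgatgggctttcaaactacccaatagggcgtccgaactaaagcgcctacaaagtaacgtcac
The GC boxes of Eif4a2 begin at -184, -87 and -57 from the start, and that of Eif4a1 at -78, with its E-box at -189. The GC content of the stretches is 66.4% for Eif4a2 and 58.8% for Eif4a1. A match of letters is a description and no evidence of binding.

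Of the other cap complex genes tested here none was called at 12 h. Eif4e, the gene of the cap-binding protein, had a change of 0.08 ± 0.11 at 12 h (adjusted p = 0.605). Eif4g3 and Eif4g2, genes of the scaffold family, had changes of -0.11 ± 0.15 and -0.01 ± 0.12, and the helicase cofactor genes Eif4b and Eif4h 0.13 ± 0.11 and -0.22 ± 0.12. Eif4e2, which encodes a cap-binding protein that represses translation, had signals of 1168.5 and 1119.3 at 6 h, against 1457.0 and 1472.1 at 0 h. Both 6 h arrays were lower, and Eif4e2 fell by 0.35 ± 0.11 at 6 h (adjusted p = 0.0284), while its change of -0.26 ± 0.11 at 12 h was not called (adjusted p = 0.0826). With the mean of all probe sets the 6 h change was -0.12 (adjusted p = 0.558), and 1 of its 4 probe sets went the other way, at 0.24 at 6 h and 0.55 at 12 h, neither of them called. The median of the 8 tested cap complex genes at 12 h was -0.06, with 1 called higher and 1 lower, beside 20.9% and 17.5% of all genes.

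Among the 4E binding proteins, Eif4ebp1 rose. Eif4ebp1, the gene of an eIF4E inhibitor that the kinase mTORC1 switches off, had signals of 2026.7 and 1865.6 at 0 h, 2148.5 and 2261.0 at 3 h, 3535.6 and 2668.5 at 6 h, and 4273.0 and 3324.5 at 12 h. All arrays with BPA were above both 0 h arrays, and at 6 and 12 h array 1 was well above array 2. The gene rose by 0.66 ± 0.15 at 6 h (adjusted p = 0.00523) and 0.95 ± 0.15 at 12 h (adjusted p = 0.000234).

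Eif4ebp2, which encodes a related inhibitor, had signals of 593.4 and 671.1 at 0 h, 584.2 and 623.5 at 3 h, 551.0 and 549.7 at 6 h, and 482.8 and 565.1 at 12 h. Both 6 h arrays and both 12 h arrays lay below the 0 h arrays, and the 3 h arrays overlapped with them. The change of -0.27 ± 0.14 at 12 h was not called (adjusted p = 0.141). Its other probe sets gave larger differences: of 4 tested, with changes between -1.09 and -0.27 at 12 h, 1 was called lower. At 6 h changes of -1.92 and -0.94 were called (limma adjusted p = 0.00291 and 0.0172), and those of -0.94 and -0.19 were not. The probe set at -1.92 was dim at 6 h, with signals of 33.9 and 92.0, against 268.7 and 208.4 at 0 h. Eif4enif1, the gene of the protein that carries eIF4E into the nucleus, had a change of -0.11 ± 0.12 at 12 h.

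**Figure D2:**
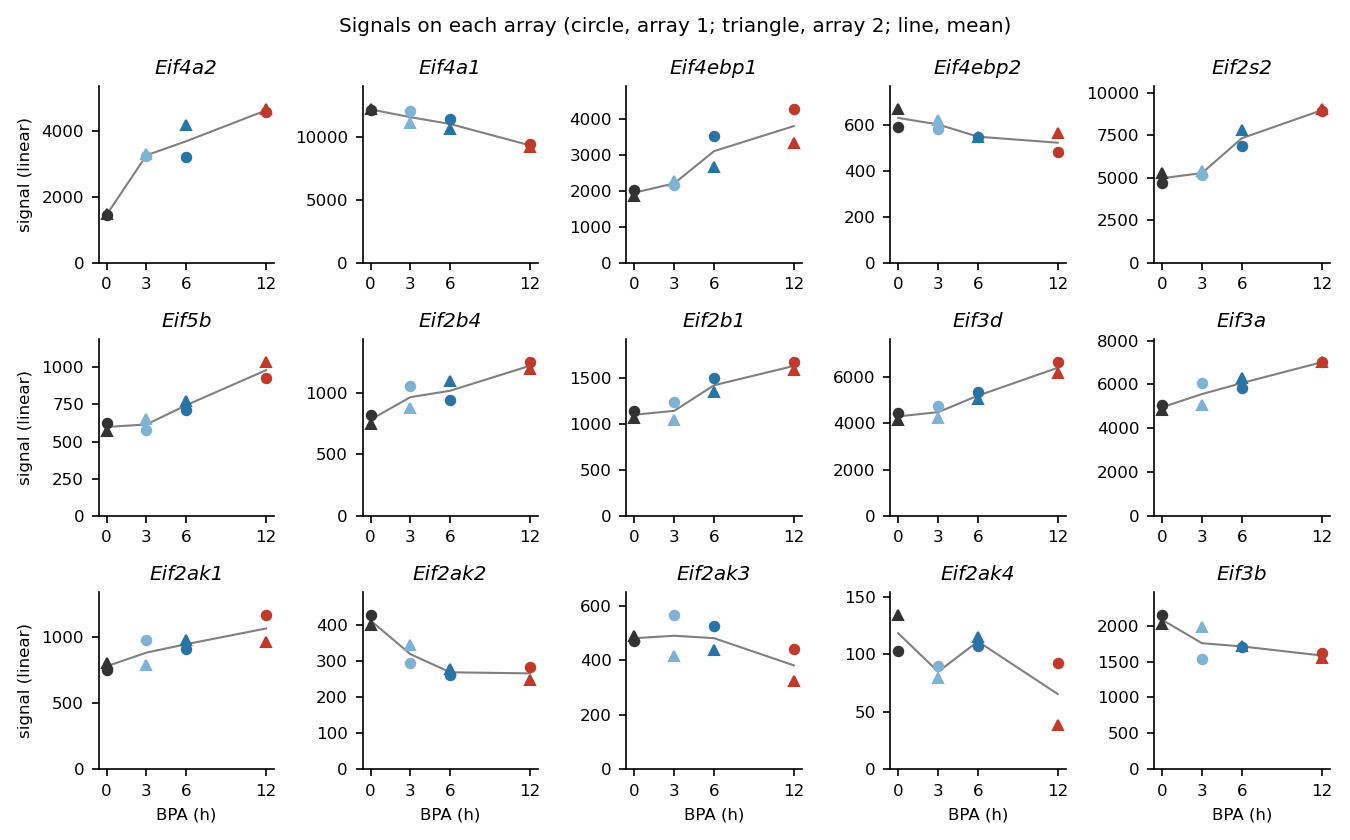
Linear signal on each array (vertical axis, from 0) against hours of BPA (horizontal axis) for 15 Eif genes; circles are array 1, triangles array 2 and lines join the means of 2 arrays. Eif4a2 is already high at 3 h, Eif4ebp1 and Eif2s2 climb from 6 h on, Eif4a1 and Eif2ak2 decline, and the 12 h arrays of Eif2ak4 lie far apart at 92.7 and 38.1.

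Read by their brightest probe sets, the 8 genes of the ternary complex and of start codon selection all lay above 0 at 12 h. Of these 4 were called higher and none lower, with a median change of 0.37. Of all 8675 genes 4720 lay above 0, and 20.9% were called higher. At 6 h 3 of the 8 were called higher, against 16.8% of all genes. Tested probe sets of the same gene could disagree in sign. Those of Eif1ax ranged at 12 h from -0.80 to 0.17 and those of Eif2s3x from -0.25 to 0.23. For Eif2d the range was -0.14 to 0.86. Eif2s2, the gene of the beta subunit of eIF2, had signals of 4687.4 and 5249.7 at 0 h, 5178.5 and 5368.8 at 3 h, 6838.8 and 7810.0 at 6 h, and 8899.9 and 9042.9 at 12 h. The 3 h arrays overlapped with those of 0 h, the 6 h arrays were above both, and the 12 h arrays were the highest. It rose by 0.56 ± 0.11 at 6 h (adjusted p = 0.00223) and 0.85 ± 0.11 at 12 h (adjusted p = 5.13e-05).

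Eif5, whose product makes eIF2 hydrolyse its GTP at the start codon, had signals of 3389.1 and 4141.6 at 12 h, against 2719.8 and 3018.6 at 0 h. Neither group overlapped the other, and the gene rose by 0.39 ± 0.12 (adjusted p = 0.0213), after 0.39 ± 0.12 at 6 h (adjusted p = 0.0288). Its 4 probe sets were all called higher at 12 h, by 0.39 to 1.25, so the probe set used here gave the smallest of these changes. The eIF1A gene Eif1a had signals of 1905.0 and 1286.2 at 6 h and 1524.3 and 1508.8 at 12 h, against 1079.3 and 1101.9 at 0 h. All these arrays were above those of 0 h, with array 1 of 6 h the highest. The gene rose by 0.52 ± 0.15 at 6 h (adjusted p = 0.023) and 0.47 ± 0.15 at 12 h (adjusted p = 0.0259), but its probe set can bind several transcripts. The 6 h change was 0.24 without array 1 of 6 h (adjusted p = 0.212) and 0.80 without array 2. Eif1b, a close relative of the gene of the start codon scanning factor eIF1, rose by 0.35 ± 0.12 at 12 h (adjusted p = 0.0399).

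The remaining 4 genes of this group were not called at 12 h. Those of the eIF2 gamma subunit, Eif2s3x and its Y-linked counterpart Eif2s3y, had changes of 0.23 ± 0.10 and 0.49 ± 0.20 (adjusted p = 0.0954 and 0.0691), and the tRNA delivery factor gene Eif2d 0.27 ± 0.12 (adjusted p = 0.0987). Eif1ax, the X-linked eIF1A gene, had signals of 2163.6 and 2123.9 at 12 h, against 1621.3 and 1611.1 at 6 h. The 12 h arrays were both above the 6 h arrays. Eif1ax was the single Eif gene called between these times, with a change of 0.41 ± 0.10 (adjusted p = 0.0431), a call that was lost with any of the 8 arrays left out.

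The 4 genes read here of eIF2B, the exchange factor that phosphorylated eIF2 blocks, were all above 0 at 12 h. Of these 2 were called higher, with a median change of 0.43. This is to be read beside the same 4720 of 8675 genes above 0 and 20.9% called higher. Eif2b3 is not among the genes read here. Eif2b4, the gene of the delta subunit, had signals of 817.8 and 747.3 at 0 h, 1057.4 and 875.0 at 3 h, 941.3 and 1095.6 at 6 h, and 1250.1 and 1193.0 at 12 h. All arrays with BPA were above both 0 h arrays, and the 12 h arrays were above all others. The change was 0.37 ± 0.13 at 6 h (adjusted p = 0.0535) and 0.64 ± 0.13 at 12 h (adjusted p = 0.00193).

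Eif2b1, the gene of the alpha subunit, had signals of 1138.1 and 1059.5 at 0 h, 1235.8 and 1046.5 at 3 h, 1498.1 and 1340.6 at 6 h, and 1668.8 and 1588.1 at 12 h. The 3 h arrays overlapped with those of 0 h, and the later arrays were above them. It rose by 0.37 ± 0.12 at 6 h (adjusted p = 0.0411) and 0.56 ± 0.12 at 12 h (adjusted p = 0.00252). The genes of the beta and epsilon subunits, Eif2b2 and Eif2b5, had changes of 0.05 ± 0.12 and 0.30 ± 0.18 at 12 h and were not called.

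The 4 eIF2 kinase genes did not move together: at 12 h 1 was called higher and 1 lower, and their median change was -0.48. Of all genes tested 20.9% were called higher and 17.5% lower at that time. Eif2ak1, the gene of the heme-regulated kinase HRI, had signals of 749.8 and 803.0 at 0 h, 974.7 and 784.4 at 3 h, 910.0 and 976.3 at 6 h, and 1159.6 and 963.1 at 12 h. Both 6 h and both 12 h arrays were above the 0 h arrays. Eif2ak1 rose by 0.44 ± 0.14 at 12 h (adjusted p = 0.0237), and the call was lost without either 0 h array or without array 1 of 12 h, with an adjusted p of up to 0.213 over all alternatives. Its other tested probe set had a change of -0.16 at 12 h.

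Eif2ak2, the gene of PKR, the interferon-induced kinase that double-stranded RNA activates, had signals of 426.4 and 398.9 at 0 h, 294.4 and 343.8 at 3 h, 260.4 and 276.9 at 6 h, and 284.7 and 246.7 at 12 h. Every array with BPA was below both 0 h arrays. Eif2ak2 fell by 0.60 ± 0.16 at 6 h (adjusted p = 0.0146) and 0.62 ± 0.16 at 12 h (adjusted p = 0.00825), and its change at 3 h was -0.37 ± 0.16 (adjusted p = 0.174). The other tested probe set of Eif2ak2 had changes of -0.21 at 6 h and -0.31 at 12 h and was not called. With the mean of all probe sets the 6 h change was -0.41 (adjusted p = 0.109). The 12 h call was lost with that mean, and also without array 1 of 0 h or array 2 of 12 h, with changes between -0.72 and -0.47 over all alternatives. A 30-base stretch of its start region is shown because Eif2ak2 had the largest fall of the called Eif genes at 12 h. Capitals mark a match to the core of the interferon-stimulated response element, searched on both strands as GAAA, any 2 bases and GAAA, at 19 to 28 bases from the RefSeq start (GRCm38.p6, chr17:78882535-78882564, minus strand).
Eif2ak2: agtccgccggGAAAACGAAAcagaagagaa

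The genes of the other kinases were not called. Eif2ak3, the gene of PERK, the kinase of the endoplasmic reticulum, had signals of 471.4 and 491.3 at 0 h, 565.0 and 415.8 at 3 h, 524.7 and 438.5 at 6 h, and 440.1 and 322.9 at 12 h. Only the 12 h arrays were both below the 0 h arrays, and the change there was -0.35 ± 0.19 (adjusted p = 0.166).

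Eif2ak4, the gene of GCN2, the kinase that binds uncharged tRNA, was dim, with signals of 102.8 and 133.8 at 0 h, 90.2 and 79.5 at 3 h, 106.9 and 115.4 at 6 h, and 92.7 and 38.1 at 12 h. The 6 h arrays overlapped with those of 0 h, the 3 h arrays were below them, and both 12 h arrays were lower but far apart. The change of -0.88 ± 0.37 at 12 h was not called (adjusted p = 0.0797). Without array 1 of 12 h it was -1.45 and called (adjusted p = 0.0117), with the remaining 12 h array assumed to vary like the other groups. Without array 2 of 12 h it was -0.32 and not called (adjusted p = 0.534).

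The factor eIF3 is the large scaffold that holds the small ribosomal subunit during initiation. Of the 11 eIF3 genes read here 5 were called higher and 1 lower at 12 h, with a median change of 0.23. Of all genes tested 20.9% were called higher and 17.5% lower at 12 h, with a median of 0.06. Neither 3 h nor 6 h had a called eIF3 gene, and at an unadjusted p under 0.05 limma gave 0 at 3 h and, at 6 h, 3 higher and 1 lower. At that threshold 1473 of all 8675 genes were higher and 769 lower at 3 h, and 1975 higher and 1219 lower at 6 h. Eif3d, the gene of a subunit that can itself bind the cap, had signals of 4432.1 and 4156.0 at 0 h, 4721.8 and 4228.4 at 3 h, 5344.5 and 5030.4 at 6 h, and 6628.3 and 6149.1 at 12 h. The 3 h arrays overlapped with those of 0 h, and each later pair lay above the one before it. Eif3d rose by 0.57 ± 0.11 at 12 h (adjusted p = 0.000912).

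Eif3a, the gene of the largest subunit, had signals of 7014.4 and 7012.9 at 12 h, against 5066.9 and 4854.2 at 0 h. Both 12 h arrays were higher, and the gene rose by 0.50 ± 0.11 (adjusted p = 0.00308). Its 4 probe sets were all called higher, by 0.50 to 0.91. Eif3c rose by 0.46 ± 0.11 (adjusted p = 0.00546) and likewise had 4 of 4 probe sets called higher. Eif3m rose by 0.41 ± 0.11 (adjusted p = 0.0087) and Eif3e by 0.30 ± 0.11 (adjusted p = 0.0468). With the mean of all probe sets the change of Eif3m was 0.26 (adjusted p = 0.23) and that of Eif3e 0.08 (adjusted p = 0.736). The mean for Eif3e includes a probe set below the filter, with signals of 67.6 and 16.2 at 12 h, against 59.8 and 53.3 at 0 h. The call of Eif3e was lost in 10 of 19 alternatives. None of its 3 tested probe sets was called singly, with changes between 0.29 and 0.32 at 12 h.

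Eif3b, whose product is a core scaffold subunit, went the other way. Its signals were 1622.6 and 1545.7 at 12 h, against 2142.1 and 2022.4 at 0 h. The groups did not overlap, and Eif3b fell by 0.39 ± 0.13 (adjusted p = 0.0257). The call was lost when either 0 h array or either 12 h array was left out, with an adjusted p of up to 0.146 over all alternatives. The 5 subunit genes that were not called, Eif3f, Eif3h, Eif3i, Eif3k and Eif3l, had changes between -0.15 (Eif3k) and 0.23 (Eif3f).

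Among the late factors, Eif5b rose. Eif5b, the gene of the GTPase that joins the ribosomal subunits, had signals of 623.3 and 574.2 at 0 h, 579.1 and 651.6 at 3 h, 714.4 and 776.6 at 6 h, and 927.5 and 1034.2 at 12 h. The 3 h arrays overlapped with those of 0 h, and both later pairs lay above. Eif5b rose by 0.70 ± 0.13 at 12 h (adjusted p = 0.000826). The mean over all its probe sets gave -0.40 instead (adjusted p = 0.08). That mean includes a probe set below the filter whose signals were 18.5 and 4.6 at 12 h, against 92.0 and 71.2 at 0 h, while the other tested probe set had a change of 0.39. Eif5a, which helps elongation and termination, and Eif6, which keeps the large subunit apart, had changes of -0.09 ± 0.15 and -0.01 ± 0.12.

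Between successive times few Eif genes were called. From 3 h to 6 h limma called none of the 41 (against 1.12% of all genes), and at an unadjusted p under 0.05 there were 4 higher and 1 lower at 6 h, beside 638 and 606 of all 8675 genes. From 6 h to 12 h it called 1, or 2.44% against 4.77% of all genes, with 9 higher and 2 lower at an unadjusted p under 0.05, beside 595 higher and 1145 lower of all genes. Both 12 h arrays were above both 6 h arrays for 18 genes (43.9%, against 20.9% of all genes). The median change from 6 h to 12 h was 0.12 for the Eif genes and -0.02 for all genes.

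**Figure D3:**
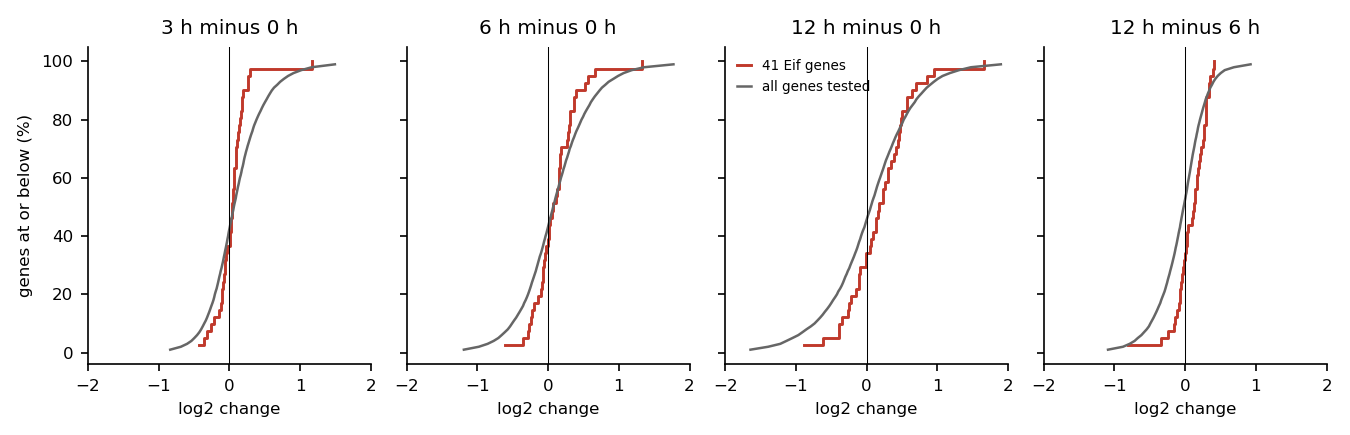
Cumulative share of genes (vertical axis, percent) at or below each log2 change (horizontal axis) for the 41 tested Eif genes and for all 8675 genes tested (1st to 99th percentile), in 4 comparisons. At 3 h and 6 h both curves cross 50% near 0, with medians of 0.04 and 0.06 and of 0.07 and 0.07, while at 12 h the Eif curve lies to the right in its middle, with a median of 0.17 against 0.06.

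The calls could depend on which probe set reads a gene, so all were compared. Of the 103 probe sets 90 passed the filter, and 28 were called higher and 8 lower at 12 h, against 17.8% and 16.9% of all 14266 probe sets tested. Of 25 genes with several tested probe sets, 17 had all of them on the same side of 0, 0 had probe sets called in opposite directions at 12 h, and 7 had changes that differed by more than 0.5. Eif2s2 had 4 of 6 probe sets called higher, with changes between 0.11 and 1.03. A single probe set of Eif2s2 was called lower at 6 h (-0.65, adjusted p = 0.0125) and higher at 12 h (1.03, adjusted p = 0.000401). Eif1ax was read differently by its probe sets, at 0.17 for the brighter and -0.80 for the dimmer, of which the second was called (adjusted p = 0.00691). For Eif4ebp1 2 of 3 probe sets were called higher, with changes between 0.72 and 0.95.

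**Figure D4:**
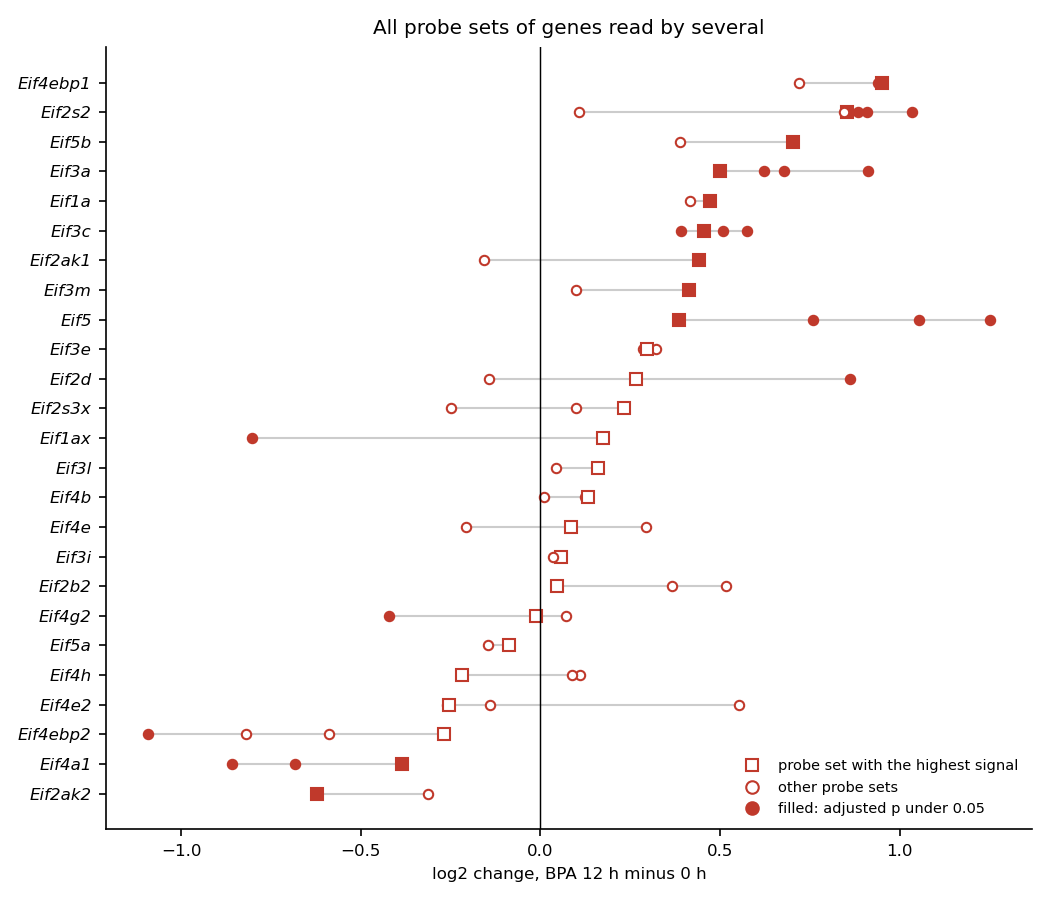
Log2 change at 12 h against 0 h (horizontal axis) of every tested probe set of the 25 Eif genes that have several; squares are the probe sets used for the gene, circles the others, and filled symbols have an adjusted p under 0.05 when all 14266 probe sets were tested singly. Eif3a, Eif3c and Eif5 have only filled symbols to the right of 0 and Eif4a1 only filled symbols to the left, whereas the symbols of Eif1ax lie at 0.17 and -0.80.

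Pathway genes outside the family are given by list, beside 20.9% of all genes called higher and 17.5% lower at 12 h and a median of 0.06. Of 11 regulators of eIF2 phosphorylation 4 were called higher and 2 lower at 12 h, with a median of 0.11. Ppp1r15a, which encodes the stress-induced subunit (GADD34) that directs a phosphatase to eIF2, had signals of 2675.4 and 2137.3 at 12 h, against 383.3 and 353.7 at 0 h. It was higher on both 12 h arrays and rose by 2.67 ± 0.16 (adjusted p = 8.51e-08). The pseudokinase gene Trib3 rose by 3.88 ± 0.11 and the adaptor gene Nck1 by 0.79 ± 0.17, while Dnajc3, the gene of p58IPK, an inhibitor of PERK and PKR, fell by 0.87 ± 0.21 (adjusted p = 0.0046).

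Of 14 tested genes of the mTORC1 axis, which controls the 4E binding proteins, 1 was called higher and 5 lower at 12 h, with a median of -0.30. This list mixes the gene of the kinase with genes of its inhibitors, so the counts and the median give no direction for the axis. Mtor, the gene of the kinase, had signals of 361.0 and 379.6 at 12 h, against 805.8 and 786.1 at 0 h. The 12 h arrays were well below those of 0 h, and Mtor fell by 1.09 ± 0.13 (adjusted p = 2.54e-05). Sesn1 fell by 1.0 ± 0.12 and Castor2 by 0.97 ± 0.29, which both encode inhibitors that act through the GATOR2 complex. Ddit4, the gene of the stress-induced inhibitor REDD1, rose by 1.22 ± 0.12.

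Of 13 cap and poly(A) regulators 3 were called higher and 3 lower at 12 h, with a median of -0.04. Mknk2, the gene of a kinase that phosphorylates eIF4E, fell by 0.91 ± 0.12, and Larp1, the gene of a repressor of messenger RNAs for the translation machinery, by 0.73 ± 0.12. Paip2b, which encodes an inhibitor of poly(A)-binding protein, rose by 0.82 ± 0.10, and the poly(A)-binding protein gene Pabpc4 by 0.70 ± 0.13. Of 21 delivery, elongation and termination genes 7 were called higher and 1 lower, with a median of 0.20. The largest called changes were those of Gfm2 (1.24 ± 0.16), a mitochondrial ribosome recycling factor gene, Gspt2 (0.75 ± 0.23), a release factor gene, Pelo (0.70 ± 0.18), a ribosome rescue gene, and Eef1e1 (0.69 ± 0.11), a gene of the multi-tRNA synthetase complex.

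The promoter windows were searched for letters that the choice by symbol did not use, with no test. RefSeq windows of 300 bases (250 before the start and 50 from it on, GRCm38.p6) were at hand for 34 of the 42 genes, in 47 windows, and were compared with all 32851 mouse windows on both strands. The GC box GGGCGG was in 68.1% of the Eif windows and 35.7% of all windows, and the ETS core CCGGAAG in 34.0% and 8.86%. The E-box CACGTG was in 21.3% of the Eif windows and 7.15% of all windows. Counted by gene, 25 of the 34 held the GC box, 13 the ETS core and 8 the E-box, since some genes have several windows. The median GC content was 61.3% in the Eif windows and 52.7% in all windows.

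The response element letters TGATGNAA, known as a site of ATF4 with C/EBP proteins, were in 2.13% of the Eif windows and 3.97% of all windows, and in none of those of the 12 risen genes with a window. The interferon response core described above was in 6.38% of the Eif windows and 3.44% of all windows, those of Eif2ak2, Eif2s3x and Eif3a. Of the 12 risen genes with a window 10 held the GC box, 6 the ETS core and 2 the E-box. Among all 34 Eif genes with a window the counts were 25, 13 and 8. Shares by gene over all mouse genes were not computed, so no difference of the risen genes can be read from these counts. A window without a match shows only that these letters are not in it.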

How the data were processed

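Total RNA of TTE3 cells given 0.2 mM BPA for 0, 3, 6 or 12 h was measured on 8 one-colour Affymetrix 430A arrays, 2 per time, grouped by the sample titles. The authors deposited 1 linear intensity for each probe set on each array; the summary software is not given in the sources used here. A scaling by the authors shows in the values: with 2% of probe sets trimmed at each end, the mean lay between 500.16 and 500.18 on all arrays. No counts stand behind these values, so the number of arrays limits their precision.

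Of 22690 probe sets, 64 controls, 691 with several symbols and 1555 without a symbol were left out. Entrez identifiers gave 20351 probe sets a current symbol (RefSeq, GRCm38.p6), and 29 kept the annotated symbol. Probe sets ending in _s_at or _x_at, 21 of the 103 Eif probe sets, may detect more than 1 transcript; Eif1a, Eif2b2, Eif2s3x, Eif3c, Eif3m, Eif4g2, Eif4h and Eif5a rest on these, which makes their values less certain. No detection calls were used.

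Intensities as deposited were used on the scale log2(signal + 7.9), where 7.9 is the 10th percentile of all values and damps changes of dim genes. Genes above the 30th percentile of mean log2 signal were kept, which removed 3718. In R 4.3.3, limma 3.58.1 fitted all 8 arrays with a mean for each time and moderated the variances along an intensity trend (4 residual and 9.00 prior degrees of freedom). All tests were two-sided, and p-values were adjusted by Benjamini-Hochberg over the genes of each comparison.

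The members, role groups, pathway lists and motifs were chosen with earlier results of these data known. Values on every array are given for the kinase and Eif4ebp genes and for genes called at 12 h with a change of at least 0.5. Eif4a1, Eif5, Eif3a, Eif3b, Eif4e2, Eif1ax and Eif4e3, and the pathway genes Ppp1r15a and Mtor, were added to these after their values were seen. Otherwise up to 4 called genes of a pathway list with the largest changes at 12 h are named.

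Alternatives changed the normalization (quantile, or the same median on each array), the offset (1.975 or 31.6), the filter (none, or the 50th percentile) and the moderation (no trend). Others took only the arrays of 2 times, a replicate block or the mean over the probe sets of a gene, or left out each array in turn. Reading genes without _s_at and _x_at probe sets was added after the data were seen.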

Additional observations from a re-analysis of the deposited data

Results flagged for a closer look

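Eif1ax was the single Eif gene whose change against 0 h was called as different between 12 h and 6 h. It had signals of 2163.6 and 2123.9 at 12 h and 1621.3 and 1611.1 at 6 h, against 1942.8 and 1856.6 at 0 h, and the difference of 12 h and 6 h was 0.41 ± 0.10 (log2; limma adjusted p = 0.0431). The call was lost in 12 of 19 alternatives, among them each of the 8 in which an array was left out, and the difference lay between 0.19 and 0.51. The dimmer probe set of Eif1ax had a change of -0.77 at 6 h and -0.80 at 12 h against 0 h. What sets the probe sets of Eif1ax apart was not tested.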

How the results depend on the processing

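At 12 h, Eif4a2, Eif2b1, Eif2b4, Eif2s2, Eif3a, Eif3c, Eif3d and Eif4ebp1 kept their calls in all 19 alternatives, as did Eif4a2 at 3 h and 6 h, while the other calls of Eif genes were lost in at least 1 alternative. Eif4a2, Eif2b1, Eif2b4 and Eif3d have 1 probe set each, so the alternatives that change the probe sets of a gene could not alter their changes. Among the called changes and those of Eif2ak3, Eif2ak4 and Eif4ebp2 at 12 h the only sign that turned was that of Eif5b at 12 h, which was -0.40 with the mean of all probe sets, where a dim probe set below the filter enters. Other changes were not followed through the alternatives. The number of Eif genes called at 3 h was 2 with arrays scaled to the same median and 2 with the mean of all probe sets. Without the intensity trend it was 4 at 6 h, 12 at 12 h, 0 between 12 h and 6 h and 7 over the 4 times. Quantile normalization and a fit of only the groups compared gave 0 between 12 h and 6 h, and scaling to the same median gave 3. Scaling to the same median also turned the split of all called genes into 463 higher and 646 lower at 3 h, in place of 742 and 306, and into 1054 and 1200 at 6 h, in place of 1455 and 844. The causes were not tested.

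With 1 array left out, the counts ranged from 2 to 8 at 6 h, 10 to 19 at 12 h, 0 to 2 between 6 h and 3 h, 0 to 1 between 12 h and 6 h and 6 to 15 over the 4 times, and the count at 3 h stayed at 1. At 6 h the count was 3 and 2 without 0 h array 1 and array 2, and 5 without 6 h array 1. At 12 h it was 10 and 11 without 0 h array 1 and array 2, and 12 without 12 h array 2. Over the 4 times it was 8 and 6 without 0 h array 1 and array 2, and 9 without either 12 h array, and between 6 h and 3 h it was 2 without 6 h array 2. These fits have fewer samples, with the lone array assumed to vary like the other groups.

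The labels do not say whether same-numbered arrays of different times belong together. Their deviations correlated between -0.011 and 0.122. With a replicate block the counts of Eif genes were 1, 10 and 19 at 3, 6 and 12 h, 1 between 6 h and 3 h, 1 between 12 h and 6 h and 17 over the 4 times. Calls over all genes rose with the block from 1048 to 1350 at 3 h, from 2299 to 2600 at 6 h and from 3331 to 3633 at 12 h. They also rose from 97 to 226 between 6 h and 3 h and from 414 to 703 between 12 h and 6 h. An effect shared by same-numbered arrays was not tested further. Genes with dim signals, such as Eif2ak4 and Eif4e3, could not be measured well on 2 arrays per time.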
